A study of Mus musculus with 7 samples.

Results

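Markers of fibroblast progenitors and of the synovial lining, 9 genes in all, were followed in the repaired mouse shoulder: Pdgfra, Pdgfrb, Pi16, Dpp4, Cd34, Ly6a, Dpt, Prg4 and Thy1. They were taken by symbol from the count files of the Tnc-/- mice and by the same Ensembl identifier from those of the wild-type mice. All 9 were found, out of 56854 gene identifiers shared by all files, and all 9 passed the filter on low counts, as did 17791 genes in all. RNA came from whole shoulder joints 2 weeks after the left supraspinatus tendon had been repaired, with 7 libraries from 7 mice. The groups were wild type (n = 3) and Tnc-/- (n = 4), named for a deletion of Tnc, the gene of the matrix glycoprotein Tenascin C of injured tendon. Every animal had the repair, so no uninjured joint served as a reference. The kind of Tnc allele, the strain, the sex and the age are not given in the sources used here. A whole joint also holds muscle, bone, marrow, cartilage and vessels, so less RNA per cell and fewer cells of a type cannot be told apart.

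Connective tissue fibroblasts are not uniform. A population around vessels and in loose connective tissue, marked by Pi16, Dpp4, Cd34 and Ly6a (Sca-1), is described as a progenitor of other fibroblasts, and Dpt, a matrix protein that binds collagen and decorin, is shared by this population and many other fibroblasts. The receptors Pdgfra and Pdgfrb bind platelet-derived growth factors, which drive fibroblast and pericyte growth after injury. In the synovium, lining fibroblasts secrete lubricin, the product of Prg4, while Thy1 (CD90) marks fibroblasts of the layer beneath.

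Depth ran from 13464057 to 18503833 gene counts in wild type and from 19250322 to 28191101 in Tnc-/-. Tnc was lower in Tnc-/-, at 352 ± 75.5 CPM (SD, n = 3) in wild type and 41.8 ± 9.26 CPM (SD, n = 4) in Tnc-/-. Reads on Tnc thus remained in every Tnc-/- library, 698 to 1051 counts, at 11.9% of the wild-type mean, and which part of the gene they cover is not given by counts per gene. CPM, the counts-per-million unit, are relative to the library size after scaling by TMM (trimmed mean of M values). Wild-type libraries 2 and 3 stood apart. Summed over 1775 receptor genes of smell and pheromone sensing, they held 1455 and 1042 CPM (of unscaled gene counts), against 86.2 CPM in wild-type library 1 and 32.9 to 41.3 CPM in Tnc-/-. Genes spanning over 300 kb were a median of 2.85 log2 units higher in these libraries than in wild-type library 1, and genes of up to 10 kb a median of 0.40 lower. The 9 genes lie on chromosomes 5 (Pdgfra), 18 (Pdgfrb), 17 (Pi16), 2 (Dpp4), 15 (Ly6a), 9 (Thy1) and 1 (Cd34, Dpt and Prg4) and span 3.16 kb (Ly6a) to 82.2 kb (Dpp4). In wild-type libraries 2 and 3 they differed from library 1 by -0.91 (Cd34) to 0.07 (Prg4) log2 units. The files of the genotypes also list different gene identifiers, so they come from separate counting runs, whose effect cannot be told apart from that of genotype. The fold changes of the members are therefore also given without wild-type libraries 2 and 3, as are those of other named genes whose call that fit changes. That fit leaves 1 wild-type library, which is assumed to vary like the Tnc-/- libraries.

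Of the 9 genes, Pi16 alone differed between the genotypes by edgeR's quasi-likelihood test, with an adjusted p under 0.05, and it was higher in Tnc-/-. That is 1 of 9, or 11.1%, where 29% of all tested genes were called (10.3% of all higher in Tnc-/- and 18.7% of all lower). Pi16 was also the 1 member whose libraries did not overlap between the genotypes, against 35.1% of all tested genes. The median log2 fold change of the 9 was -0.04 and that of all tested genes -9.0e-04. The counts of calls and of separated genes among the members were thus below the background of these libraries. With only 9 genes this is a description, and the difference from the background was not tested.

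**Figure D1:**
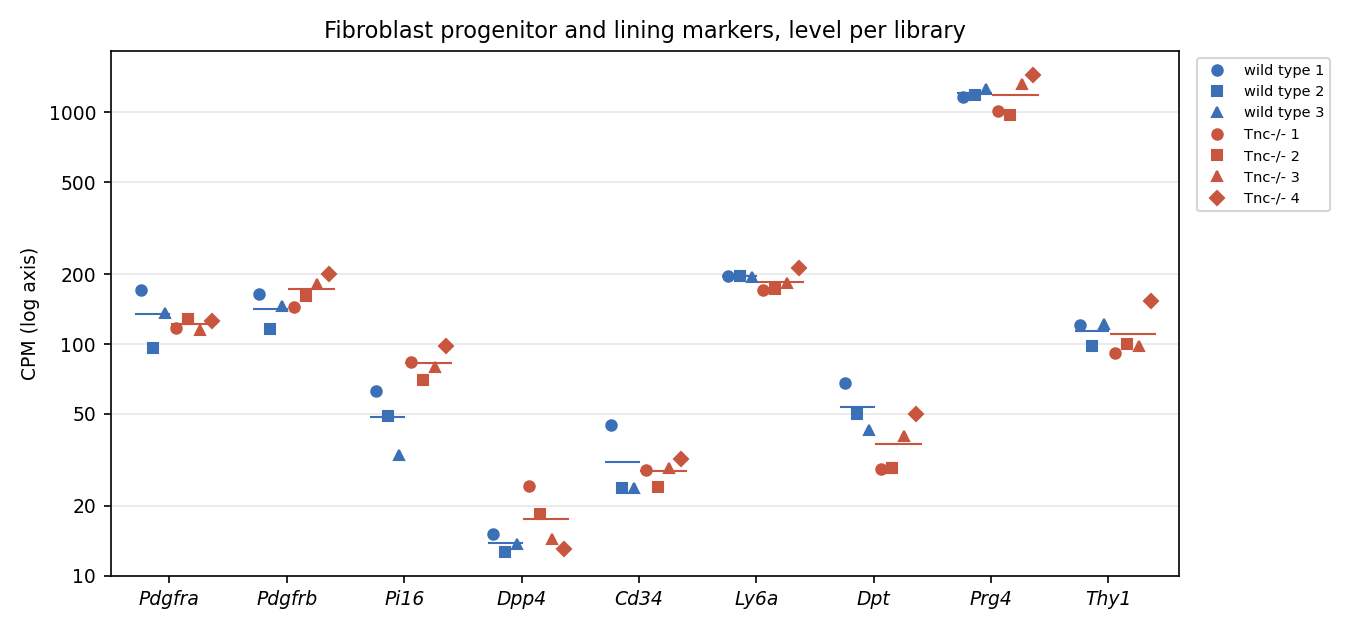
Level of each marker gene in each library, in CPM on a log axis, with blue for wild type (n = 3) and red for Tnc-/- (n = 4); the lines are group means. Pi16 is the gene whose red points, 69.9 to 97.8 CPM, all lie above its blue points, 33.2 to 62.6 CPM.

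The progenitor markers were examined first. Pi16 encodes a secreted or membrane-bound peptidase inhibitor family protein and is the marker that gives the progenitor population its name. Its wild-type levels were 62.6, 48.9 and 33.2 CPM in libraries 1 to 3, from 1167, 736 and 546 counts. In Tnc-/- libraries 1 to 4 it was at 83.6, 69.9, 79.7 and 97.8 CPM, from 2260, 1254, 1424 and 1870 counts. Every Tnc-/- library lay above every wild-type library, and the nearest were Tnc-/- library 2 and wild-type library 1. The means were 48.2 ± 14.7 CPM (SD, n = 3) and 82.7 ± 11.6 CPM (SD, n = 4), a 1.72-fold difference. The log2 fold change was 0.78 (SE 0.22, 95% interval 0.29 to 1.27; edgeR, adjusted p = 0.0286).

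The direction for Pi16 was the same in all 17 alternatives, but the call was not. It was past the threshold in 6 of them, with log2 fold changes from 0.24 to 1.11 and adjusted p (edgeR, limma or DESeq2) from 0.000183 to 0.711. Its call was lost with adjusted p of 0.0694 to 0.0809 when 1 library was left out, for each library other than wild-type 1 and Tnc-/- 2. Against wild-type library 1 alone, the log2 fold change of Pi16 was 0.40 (SE 0.19; edgeR, adjusted p = 0.224), and without that library it was 1.11 (adjusted p = 0.000183). Of all genes tested, 64.2% were called in that last fit and 4.45% in the one before. The share called was 16% and 12.3% without wild-type library 2 or 3, and 16.6%, 17.6%, 14.5% and 16.5% without Tnc-/- library 1, 2, 3 or 4. It was 35.1% with DESeq2, 5.47% with limma voom, 28.3% with DESeq2 size factors, 30.9% with library totals and 31.1% with TMM over genes spanning up to 10 kb. With no filter it was 26.3%, with at least 10 counts in every library 24.3%, with a replicate block 9.74% and with the receptor sum as a covariate 2.24%.

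Dpp4, the cell-surface peptidase CD26 and the usual partner of Pi16 as a marker, was the lowest of the 9. Its levels were 15.1, 12.7 and 13.7 CPM in wild type and 24.4, 18.5, 14.4 and 13.1 CPM in Tnc-/- libraries 1 to 4. Wild-type libraries lay close together, whereas the Tnc-/- libraries were spread from above to within the wild-type range, and the groups overlapped. Its log2 fold change was 0.35 (SE 0.25, 95% interval -0.23 to 0.92; edgeR, adjusted p = 0.332). It was 0.13 without Tnc-/- library 1, 0.22 without wild-type libraries 2 and 3, 0.11 with library totals and 0.05 with TMM over short genes, with adjusted p of 0.707 to 0.906 in these 4 fits. Pi16 and Dpp4 did not follow each other within Tnc-/-: library 4 was highest for Pi16 and lowest for Dpp4. An antisense gene, Gm13561, shares 3.67% of the exon bases of Dpp4. It had 294 and 199 counts in wild-type libraries 2 and 3, 10 in library 1, and 0 to 5 in Tnc-/-. The strand setting of the counting is not stated, so reads on the shared bases cannot be assigned to a strand.

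Cd34, a sialomucin of fibroblast progenitors, endothelium and blood stem cells, was at 44.9, 24.0 and 23.9 CPM in wild type and at 28.6, 24.2, 29.2 and 31.8 CPM in Tnc-/-. Wild-type library 1 was the highest of all 7, and the other wild-type libraries were the lowest. The log2 fold change of -0.12 (SE 0.24, 95% interval -0.67 to 0.43; edgeR, adjusted p = 0.735) turned to 0.34 without wild-type library 1 (adjusted p = 0.0944). Without wild-type libraries 2 and 3 it was -0.66 (adjusted p = 0.0569).

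Ly6a encodes the small surface protein Sca-1, which is anchored by a glycolipid and found on progenitor fibroblasts, endothelium and lymphocytes. It was the steadiest member in wild type, at 196, 196 and 195 CPM, with a coefficient of variation of 0.303%. Tnc-/- libraries were at 172, 172, 184 and 214 CPM, a coefficient of variation of 10.7%, and lay on both sides of the wild-type values. Its log2 fold change was -0.08 (SE 0.13, 95% interval -0.37 to 0.21; edgeR, adjusted p = 0.674), and -0.09 without wild-type libraries 2 and 3. With TMM over short genes it was -0.40 and past the threshold (adjusted p = 0.0344). Ly6a belongs to a cluster of similar genes, so reads that match several copies could be missing from its count. Reads without a unique alignment, 6.67 to 8.32% of those listed in Tnc-/-, were not counted to any gene. Ly6c1, one of that cluster, was at 119 to 137 CPM in wild type and 124 to 129 CPM in Tnc-/-.

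Dpt was the member with the lowest log2 fold change. Its levels were 67.6, 50.1 and 42.5 CPM in wild type and 29.0, 29.1, 40.1 and 49.7 CPM in Tnc-/- libraries 1 to 4. The first 3 Tnc-/- libraries were below every wild-type library and the fourth lay among them. The log2 fold change was -0.53 (SE 0.24, 95% interval -1.07 to 0.005; edgeR, adjusted p = 0.121). It was past the threshold when libraries were scaled by their totals (-0.76, adjusted p = 0.0289) or by TMM over genes spanning up to 10 kb (-0.82, adjusted p = 0.017), scalings that moved the median of all genes by -0.24 and -0.31. Without wild-type libraries 2 and 3 it was -0.88 (SE 0.25; edgeR, adjusted p = 0.0719), and without wild-type library 1 it was -0.23 (adjusted p = 0.351).

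**Figure D2:**
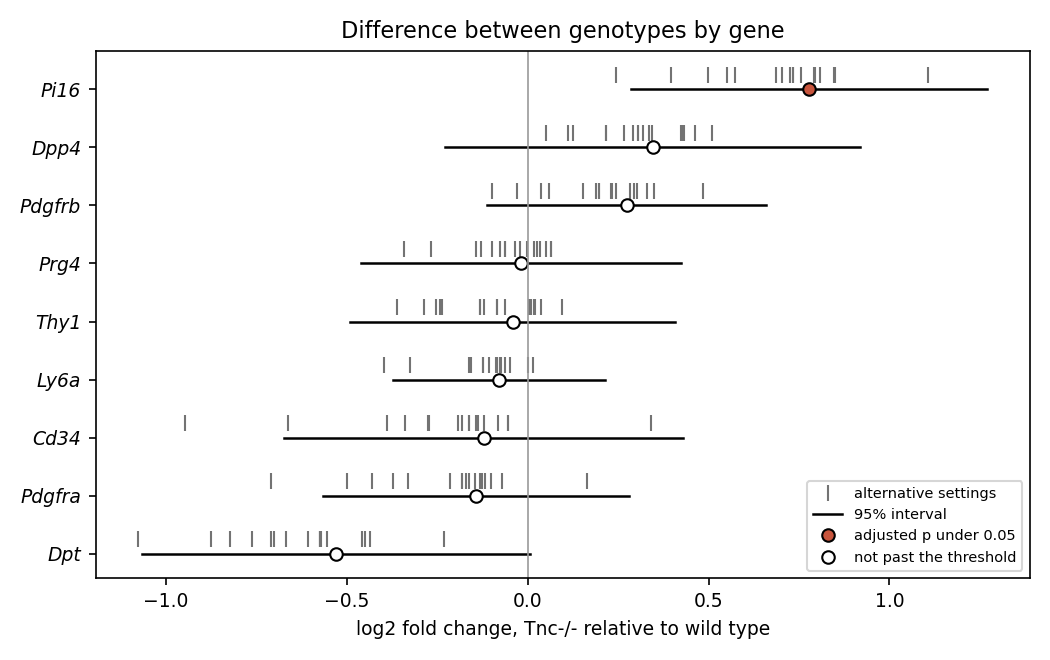
Log2 fold change of each marker, Tnc-/- relative to wild type, with its 95% interval (line) and the values under the 17 alternative settings (ticks). Pi16 at 0.78 has the filled point of an adjusted p under 0.05 and Dpt at -0.53 lies at the other end; the intervals of the 8 open points include 0.

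The PDGF receptors did not differ past the threshold. Pdgfra, the receptor of mesenchymal progenitors and most fibroblasts, was at 172, 96.2 and 136 CPM in wild type and at 118, 128, 115 and 126 CPM in Tnc-/-. The wild-type libraries enclosed all Tnc-/- libraries, with coefficients of variation of 28.0% and 5.08%. Its log2 fold change was -0.14 (SE 0.19, 95% interval -0.57 to 0.28; edgeR, adjusted p = 0.595), with 0.16 when wild-type library 1 was left out. Without wild-type libraries 2 and 3 it was -0.50 (adjusted p = 0.0821).

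Pdgfrb, the receptor of pericytes, smooth muscle and many fibroblasts, was at 165, 116 and 146 CPM in wild type and at 145, 161, 182 and 201 CPM in Tnc-/-. Tnc-/- libraries 3 and 4 were above every wild-type library. The log2 fold change was 0.27 (SE 0.17, 95% interval -0.11 to 0.66; edgeR, adjusted p = 0.253). It was past the threshold only without wild-type library 1 (0.48, adjusted p = 0.0213), the range over the 17 alternatives being -0.10 to 0.48 with adjusted p from 0.0213 to 0.886. Scaling by TMM over genes of up to 10 kb turned it to -0.03, and without wild-type libraries 2 and 3 it was 0.06 (adjusted p = 0.886).

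Their ligands were read from a list of 4 ligands and Pdgfrl, a PDGF receptor-like protein. Of these 5 genes, 2 were called, both lower in Tnc-/-, none was called higher, and the list's median was -0.54. Of all genes tested, 29% were called and 18.7% were called lower. Pdgfd, a ligand of the beta receptor, was at 16.4, 53.0 and 47.0 CPM in wild type and at 11.1, 15.7, 11.8 and 12.6 CPM in Tnc-/- (log2 fold change -1.60, SE 0.36; edgeR, adjusted p = 0.0129). Wild-type library 1 was close to the Tnc-/- libraries, and without wild-type libraries 2 and 3 the difference in Pdgfd was -0.37 (adjusted p = 0.377). Pdgfc, a ligand of the alpha receptor, was at 35.0, 28.0 and 43.4 CPM in wild type and at 22.2, 21.6, 26.1 and 26.3 CPM in Tnc-/- (-0.56, SE 0.18; adjusted p = 0.0465). For Pdgfc the difference was -0.55 without wild-type libraries 2 and 3 (adjusted p = 0.103), and the groups did not overlap. Pdgfa, at 37.1 to 59.4 CPM over the 7 libraries, and Pdgfb, at 35.4 to 49.1 CPM, had log2 fold changes of -0.11 (adjusted p = 0.671) and 0.11 (adjusted p = 0.565), and the direction of Pdgfb flipped with library totals and with TMM over short genes. Pdgfrl had -0.54 (SE 0.21; edgeR, adjusted p = 0.087). Pdgfrl was past the threshold in 5 of 17 alternatives, among them DESeq2 (adjusted p = 0.0482) and the fit without Tnc-/- library 4 (-0.75, adjusted p = 0.0318), and it was -0.48 without wild-type libraries 2 and 3 (adjusted p = 0.272).

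**Figure D3:**
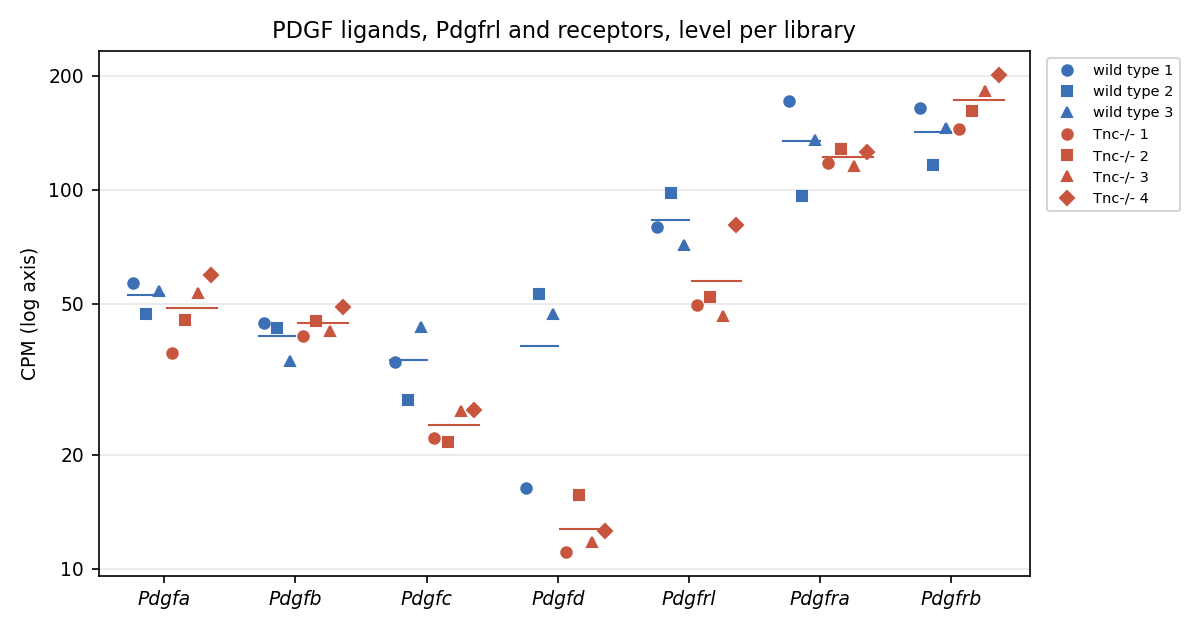
Levels of the PDGF ligands, Pdgfrl and the receptors in each library, in CPM on a log axis (blue wild type, n = 3; red Tnc-/-, n = 4; lines are group means). The blue circle of Pdgfd, wild-type library 1 at 16.4 CPM, lies near the red points, while the other blue points of this gene are at 47.0 and 53.0 CPM.

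Markers of the synovial layers came next. Prg4 encodes lubricin, the boundary lubricant of joints, which the surface zone of articular cartilage also makes. It was the most abundant member, with 1170, 1195 and 1262 CPM in wild type and 1012, 974, 1333 and 1457 CPM in Tnc-/- libraries 1 to 4. The wild-type libraries lay within the span of the Tnc-/- libraries, of which libraries 1 and 2 were below and 3 and 4 above all of them. Its log2 fold change was -0.02 (SE 0.20, 95% interval -0.46 to 0.43; edgeR, adjusted p = 0.955), and 0.02 without wild-type libraries 2 and 3. The interval thus leaves room for a difference in either direction. Opposite-strand exons of Tpr cover 4.77% of the exon bases of Prg4.

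Thy1 was at 121, 98.2 and 122 CPM in wild type and at 91.2, 99.6, 98.0 and 153 CPM in Tnc-/-. Tnc-/- library 4 was far above the others and above all wild-type libraries. The log2 fold change was -0.04 (SE 0.20, 95% interval -0.49 to 0.41; edgeR, adjusted p = 0.894) and -0.24 without that library (adjusted p = 0.243). Without wild-type libraries 2 and 3 it was -0.13 (adjusted p = 0.781). The ratio of Prg4 to Thy1, lining to sublining marker, was 9.69, 12.2 and 10.3 in wild type and 11.1, 9.78, 13.6 and 9.51 in Tnc-/-. These ranges overlapped (difference 0.03 log2 units; exact two-sided permutation test, p = 0.857, adjusted over the 36 pairs of members p = 1).

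In each genotype 1 library stood high in most markers. Tnc-/- library 4 was the highest of its group in 7 of the 9 genes, the exceptions being Dpp4, highest in library 1, and Pdgfra, highest in library 2. In wild type, library 1 was the highest for 6 of 9. Summed over 8 general fibroblast genes (collagens, decorin, lumican and others), Tnc-/- library 4 held 58643 CPM against 33819 to 38510 in the other Tnc-/- libraries, and wild-type library 1 held 50910 CPM against 31738 and 39735. Over 7 cartilage genes Tnc-/- library 4 held 3993 CPM against 1637 to 2797, and wild-type library 1 held 2996 CPM against 1884 and 2223. Wild-type library 1 was also the highest of its group in the macrophage (2917 CPM against 1555 and 1520) and skeletal muscle sums (25947 against 20348 and 19546). Its marrow myeloid, erythroid, mural and endothelial sums were highest as well, and its T cell, blood progenitor, neuron, epidermal and PDGF sums were the lowest. The part of tissue content, or of the wider shift between the wild-type libraries, in the levels of the members was not tested.

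**Figure D4:**
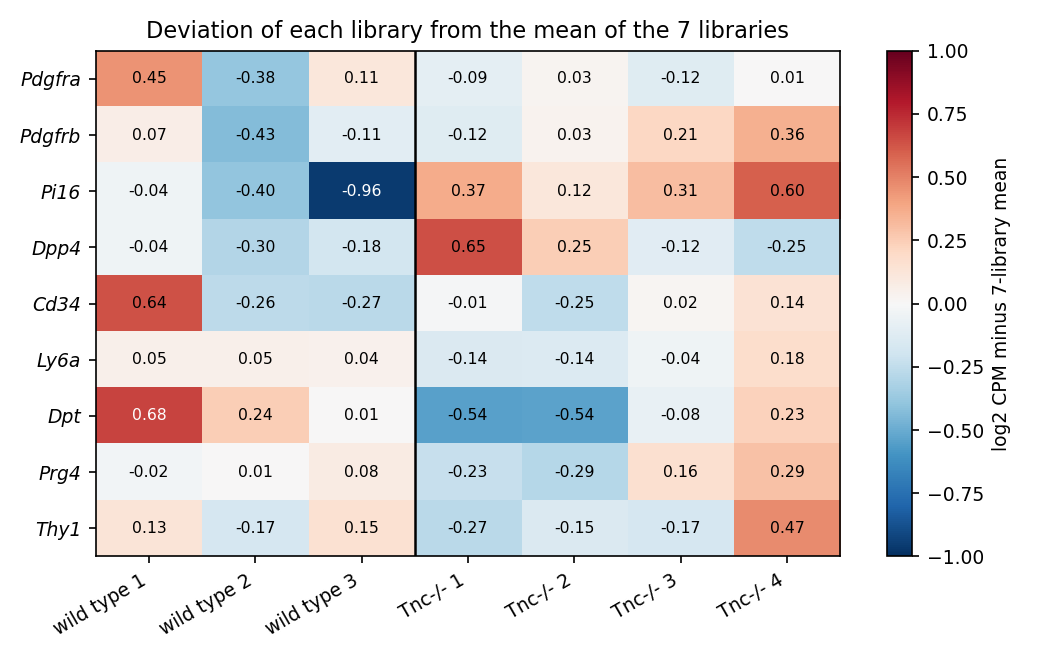
Deviation of each library (columns) from the mean of the 7 libraries for each marker (rows), in log2 CPM, with red above and blue below the mean; the vertical line separates the genotypes. The Tnc-/- 4 column is above the mean for 8 of 9 genes, and the Pi16 row runs from -0.96 in wild type 3 to 0.60 in Tnc-/- 4.

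Levels were compared between genes per kilobase of exon, taken from GENCODE M21 over all isoforms. In wild type the order was Prg4 (282 CPM per kb), Ly6a (163), Thy1 (38.0), Dpt (31.0), Pdgfrb (26.0), Pdgfra (13.4), Pi16 (7.58), Cd34 (4.24) and Dpp4 (2.19). Neighbours whose wild-type libraries overlapped were Thy1 with Dpt, Dpt with Pdgfrb, Pdgfra with Pi16, and Pi16 with Cd34. In Tnc-/- Prg4 (279 CPM per kb) and Ly6a (154) again led, clear of each other and of the rest. Pi16 (13.0 CPM per kb) stood above Pdgfra (12.2) there, in 3 of 4 libraries, and Pdgfrb (31.4) above Dpt (21.4) in 4 of 4.

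Ratios between members within a library do not depend on the scaling. Of the 36 pairs, 10 had ratios that did not overlap between the genotypes, all with an exact two-sided permutation p of 0.0571, the smallest this design allows, and 0.206 after Benjamini-Hochberg adjustment over the pairs. Every one of these 10 pairs held Pi16 or Pdgfrb, so they are not separate results. Over all pairs of tested genes, 37.1% did not overlap. The share among the members was below this, a difference that was not tested. The pair with the largest difference was Pi16 and Dpt, the highest and lowest member, so the size of that difference is a description. Pi16 to Dpt was 0.926, 0.976 and 0.780 in wild-type libraries 1 to 3 and 2.88, 2.40, 1.99 and 1.97 in Tnc-/- libraries 1 to 4. On the log2 scale the means differed by 1.36, and by 1.24 to 1.43 when each library was left out in turn, with 1.30 against wild-type library 1 alone. Pdgfra to Pdgfrb was 1.04, 0.825 and 0.930 in wild type and 0.814, 0.795, 0.636 and 0.627 in Tnc-/-, a difference of -0.38 log2 units, without overlap.

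Lists of related fibroblast genes gave a setting for these values. Of 15 further genes of progenitor and adventitial fibroblasts, 1 was called higher, 2 lower and 12 were not past the threshold, with a median log2 fold change of -0.03. That is 3 of 15, where 29% of all genes were called. TMM over short genes gave 1 higher and 5 lower, and leaving out wild-type library 1, with 64.2% of all genes called, gave 3 higher and 2 lower. Tnxb, which encodes Tenascin X of loose connective tissue, was higher at 169 ± 41.4 CPM (SD, n = 3) against 411 ± 51.8 CPM (SD, n = 4). On the log2 scale this was 1.28 (SE 0.20; edgeR, adjusted p = 0.0067), and 0.93 without wild-type libraries 2 and 3 (adjusted p = 0.041). Efemp1, which encodes fibulin-3, was lower at 23.8 ± 4.72 CPM against 10.6 ± 1.75 CPM (-1.16, SE 0.22; adjusted p = 0.00883), and -0.89 in that smaller fit (adjusted p = 0.0615). Sema3c, a secreted semaphorin chosen after its values were seen, completes the calls (-0.45, SE 0.12; edgeR, adjusted p = 0.0229), and without wild-type libraries 2 and 3 its difference was -0.47 with the call lost (adjusted p = 0.084).

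Of 10 synovial lining genes, 1 was called (29% of all genes were), Vcam1, an adhesion molecule for leukocytes, at 72.6 ± 21.1 CPM (SD, n = 3) against 117 ± 20.5 CPM (SD, n = 4). The log2 difference of 0.68 for Vcam1 (SE 0.22; edgeR, adjusted p = 0.0444) was 0.28 without wild-type libraries 2 and 3 (adjusted p = 0.433) and stayed past the threshold in 4 of 17 alternatives. Pdpn, the lining glycoprotein podoplanin, had -0.35 (SE 0.16; edgeR, adjusted p = 0.13). The list's median was -0.08, and with library totals or TMM over short genes its 1 call was a lower gene instead. Of 6 sublining genes 0 were called by edgeR, DESeq2 or limma voom, 1 had an unadjusted p under 0.05 and 2 were called lower with TMM over short genes; the median was -0.21. The smallest p among them was for Cxcl12, a chemokine of stromal cells, at 0.62 (SE 0.26; edgeR, adjusted p = 0.111), which was -0.20 with the background covariate and 0.08 without wild-type libraries 2 and 3. Without wild-type library 1, Cxcl12 was at 1.07 and called (adjusted p = 0.000261), the 1 sublining call of that fit. Of 8 general fibroblast genes 1 was called lower (18.7% of all genes were): Lum, the collagen-binding proteoglycan lumican, at -0.63 (SE 0.21; edgeR, adjusted p = 0.0482). Its call was lost without wild-type libraries 2 and 3 (-0.84, adjusted p = 0.0613).

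Other cells of a joint also express these markers, so their genes were read beside them. Mural cell genes, which bear on Pdgfrb, had 2 of 8 called, both higher: Notch3 (0.70, SE 0.17; edgeR, adjusted p = 0.0163) and Mcam (0.49, SE 0.16; adjusted p = 0.0452), while their summed level overlapped (1817 to 2608 CPM in wild type, 2224 to 3088 in Tnc-/-). Mural calls numbered 0 with library totals or TMM over short genes, 6 without wild-type library 1, all higher, and 1 of 8 without wild-type libraries 2 and 3. In that last fit Notch3 was at 0.98 (adjusted p = 0.0251) and Mcam at 0.44 (adjusted p = 0.221). The main count of 2 of 8 compares with 29% of all genes, and the 6 of 8 without wild-type library 1 with 64.2%. Endothelial genes, which bear on Cd34 and Ly6a, had 2 of 10 called higher and 2 lower, and summed to 681 to 832 CPM in wild type and 685 to 809 CPM in Tnc-/-. The lower calls were the receptor Tek (-0.95, SE 0.14; edgeR, adjusted p = 0.0067) and the sialomucin Emcn (-0.84, SE 0.20; adjusted p = 0.0173). The higher calls, chosen after their values were seen, were Vwf, von Willebrand factor (0.77, SE 0.19; adjusted p = 0.0186), and Egfl7 (1.14, SE 0.34; adjusted p = 0.0355). In the fit without wild-type libraries 2 and 3, Tek (-0.77, adjusted p = 0.0314) and Egfl7 (1.19, adjusted p = 0.0436) were past the threshold, and Emcn (-0.53, adjusted p = 0.157) and Vwf (0.38, adjusted p = 0.188) were not. Over the 17 alternatives Tek was called in 16, Emcn in 11, Vwf in 10 and Egfl7 in 7. When each library was left out in turn, Egfl7 was called in 2 of 7 fits, with adjusted p (edgeR) of up to 0.104. T cell genes, which bear on Thy1, Ly6a and Dpp4, summed to 36.2 to 77.6 CPM over 8 genes in wild type and 29.0 to 38.5 CPM in Tnc-/-. Of these 3 were called lower, and 0 without wild-type libraries 2 and 3 (edgeR; 1 at an unadjusted p under 0.05). The list did not move one way: the calls were Lck (-1.47), Cd247 (-1.42) and Cd3e (-2.52), while Cd3d (1.62 against 1.81 CPM), Cd4 (16.1 against 16.5 CPM) and Cd5 (1.09 against 2.21 CPM, without overlap) had higher means in Tnc-/-. Cd3e was at 0.590, 9.37 and 5.28 CPM in wild type and at 0.523 to 1.18 CPM in Tnc-/-. With wild-type libraries 2 and 3 left out, Lck was at -0.33 (adjusted p = 0.531), Cd247 at -0.94 (adjusted p = 0.0924) and Cd3e at 0.56 (adjusted p = 0.698), so that Cd3e turned direction. Cd3d, Cd4, Cd5 and Cd3e were chosen after their values were seen.

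Marrow and muscle lists had summed levels that separated the genotypes upward, and the PDGF and epidermal lists had sums that separated them downward. Taken as single genes and not as sums, Pi16 and 35.1% of all genes tested also separated them. The PDGF sums were 161 to 228 CPM in Tnc-/- against 233 to 270 CPM in wild type. The epidermal sums were 2.197 to 2.507 CPM in Tnc-/- against 4.133 to 50.97 CPM in wild type. The summed levels of 7 neutrophil and marrow myeloid genes, 7 erythroid genes and 7 skeletal muscle genes were higher in every Tnc-/- library than in every wild-type library: 6216 to 10582 against 2699 to 5633 CPM, 1081 to 2034 against 329 to 789 CPM, and 28186 to 41873 against 19546 to 25947 CPM. Calls numbered 4 of 7, 4 of 6 tested and 2 of 7, all higher, where 29% of all genes were called. Without wild-type library 1, where 64.2% of all genes were called, calls numbered 7, 6 and 6. They numbered 0, 2 and 0 when wild-type libraries 2 and 3 were left out (edgeR; 1, 3 and 2 at an unadjusted p under 0.05). Cartilage genes, which bear on Prg4, had 0 of 7 called by edgeR, DESeq2 or limma voom and 0 at an unadjusted p under 0.05 (1 called lower with library totals), with summed levels of 1884 to 2996 CPM in wild type and 1637 to 3993 CPM in Tnc-/-. Neuron genes, which bear on Thy1, summed to 33.9 to 94.3 CPM in wild type and 26.7 to 34.8 CPM in Tnc-/-, with 2 of 4 tested called lower and 0 without wild-type libraries 2 and 3 (edgeR; 0 at an unadjusted p under 0.05). The epidermal keratins Krt5 and Krt14, named after their values were seen, were at most at 0.698 CPM in any library, and Krt15 was at 0. Of 3 tested epidermal genes, 3 were called lower, and 1 without wild-type libraries 2 and 3. Macrophage genes had 0 of 7 called by edgeR, DESeq2 or limma voom and 0 at an unadjusted p under 0.05, with 1 called lower by library totals and 4 called higher without wild-type library 1. Of 6 blood progenitor genes, which bear on Cd34, 1 was called lower, 2 higher and 3 lower without wild-type library 1, and 0 without wild-type libraries 2 and 3 (edgeR; 1 at an unadjusted p under 0.05). The part of these cells in the levels of the members was not tested.

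Tendon cells were checked through 6 genes. Tnmd, a tendon membrane protein named after its values were seen, was at 182 to 361 CPM over all 7 libraries. The tendon transcription factor Scx had 0 counts in each of them, as had Nefl and Alas2 in the neuron and erythroid lists. Sptb, also of the erythroid list, had 1468 to 11723 counts, so 0 counts in every library need not mean that a gene was silent. Why these genes received no counts was not tested. Of 5 tendon genes tested 1 was called, 3 were above 0 and the median was 0.007. Of all genes, 29% were called and 18.7% were called lower. The call was Mkx, a tendon transcription factor, lower in Tnc-/- (-0.92, SE 0.28; edgeR, adjusted p = 0.0379), with -0.65 and an adjusted p of 0.176 without wild-type libraries 2 and 3.

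Genes with the pattern most like each member were sought among 12373 others whose mean level reached 5 CPM, by the mean absolute difference in log2 CPM over the 7 libraries after centring each gene. For Thy1 they were Timp2, an inhibitor of matrix metalloproteinases, at 0.053 and Mxra8, a surface protein of mesenchymal cells, at 0.056. For Pdgfrb they were Kctd17 (0.036) and Col22a1 (0.045), a collagen of tissue junctions that is itself on the lining list. For Dpt they were Fbln7 (0.11) and Srpx (0.13), and for Pi16 Yrdc (0.038) and Ring1 (0.046). The remaining members had Nedd4 and Aida (Pdgfra), Ncapd3 and Rfesd (Dpp4), Dynll1 and C1d (Cd34), Cers5 and Zfand2a (Ly6a), and Glis2 and Gstt2 (Prg4). With 12373 candidates and 7 libraries, close patterns can arise by chance. Whether a likeness reflects a shared cell type was not tested. Among the members, the closest pairs were Ly6a with Prg4 (0.10) and Ly6a with Thy1 (0.14).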

How the data were processed

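RNA of 7 whole shoulder joints was sequenced after poly(A) capture and NEBNext Ultra library preparation, per the labels' protocols. Each library has a deposited file of raw counts of reads by gene. The submitters' processing notes name FastQC 0.11.9, HISAT2 2.2.1, HTSeq 2.0.2, DESeq2 1.38.3 and the build GRCm39, and the annotation and strand setting are not given in the sources used here. The wild-type files list 56980 identifiers and the Tnc-/- files 56941 and 5 rows that name no gene, which held 30.1 to 32.7% of the reads listed and were left out. The 56854 shared identifiers were used, and no column was left unmapped (0).

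Genotypes, taken from the titles, were compared over all genes with edgeR 4.0.16 in R 4.3.3 (filterByExpr, TMM, robust quasi-likelihood F test, Benjamini-Hochberg adjustment, threshold 0.05). Fold changes set Tnc-/- against wild type, and the standard error is the fold change divided by the root of F. Intervals use the t distribution with edgeR's degrees of freedom. The fit was checked on simulated data. Exon lengths, spans and overlaps come from GENCODE M21 (GRCm38), another build than the authors', so no coordinates are given. Ratios of members were tested by exact two-sided permutation over the 35 possible splits. P-values measure the spread between these mice.

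The alternatives were DESeq2 1.42.0, limma 3.58.1 voom, DESeq2 size factors, library totals, TMM from genes spanning at most 10 kb, no filter, at least 10 counts in every library, leaving out libraries, a replicate block, and the log2 summed CPM of receptor genes as a background covariate. The members and gene lists were chosen with earlier results of these data known. Named besides the members are Tnc, at most 2 genes of smallest p per list, markers at 0 counts or bearing on a member, and the 2 genes most alike; others are marked as chosen after their values were seen.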

Additional observations from a re-analysis of the deposited data

Results flagged for a closer look

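Dixon's ratio was computed for each of the 9 members over the Tnc-/- group. It passed the 95% critical value for 4 samples in 1 case, Thy1 in Tnc-/- library 4, at 153 CPM against 91.2, 99.6 and 98.0 CPM in libraries 1 to 3. The distance to the next value made up 0.865 of the range, and chance passes this level in about 1 in 20 groups. The same library held the highest sums of general fibroblast and cartilage genes in its group (as wild-type library 1 did in its own), and the part of tissue content in its Thy1 level was not tested.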

How the results depend on the processing

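Each member had at least 191 counts in every library. The count of called genes, 5159, was 973 with limma voom, 825 without wild-type libraries 2 and 3, 1713 with the replicate block, 399 with the background covariate, and 2229 to 14113 when each library was left out (14113 without wild-type library 1). Among the members the 1 call became 2 with TMM from genes spanning at most 10 kb (Ly6a and Dpt), and 0 with limma voom, without wild-type libraries 2 and 3, with the replicate block and with the background covariate (edgeR). In these 4 fits 1, 3, 2 and 3 of 9 members had an unadjusted p under 0.05, as had 32.8%, 24.6%, 31% and 18.4% of all genes. Leaving out each library gave 0 to 2 calls, 2 without wild-type library 1 (Pi16 and Pdgfrb). Scaling by library totals kept 1 call, but it was Dpt. The share of lower calls, 64.5% of all, was 82.7% with library totals, 85.7% with TMM from short genes, 72.4% without a filter, 27.3% with limma voom, 43.2% without wild-type libraries 2 and 3 and 52.4% with the background covariate.

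Changes of sign were as follows. The log2 fold change without a filter was 0.0012 for Ly6a, 0.064 for Prg4 and 0.037 for Thy1, where the median of all genes moved by -0.16. Without wild-type libraries 2 and 3 it was 0.025 for Prg4 and -0.0091 for Pdgfb. With TMM from short genes it was -0.0303 for Pdgfrb and -0.19 for Pdgfb, and with library totals -0.13 for Pdgfb. With the background covariate it was -0.099 for Pdgfrb, -0.047 for Pdgfb, -0.20 for Cxcl12, 0.13 for Pdgfd, 0.11 for Lck and 1.76 for Cd3e, which was 0.56 without wild-type libraries 2 and 3. Leaving out each library gave -0.27 to 0.34 for Cd34, -0.16 to 0.014 for Ly6a, -0.33 to 0.16 for Pdgfra, -0.13 to 0.065 for Prg4, -0.24 to 0.096 for Thy1, -0.22 to 0.042 for Pdgfa, and -0.0798 to 0.12 for the ratio of Prg4 to Thy1. The causes were not tested.

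Replicate numbers 1 to 3 occur in both genotypes, but same-numbered libraries did not deviate together (r across 16617 genes of -0.07, 0.043 and -0.033), so they share only a number, and 1 of 3 wild-type libraries correlated best with its own number. With the replicate block Pi16 had 0.73 (edgeR, adjusted p = 0.0728).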
